A study of Homo sapiens with 2 samples.

Results

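The promoters described here were the FAIRE peaks at protein-coding genes that were listed in control HepG2 cells and in no other list. A peak was a member when it stood in the control-specific list, when its annotation class was promoter-TSS (a peak at an annotated transcription start site, TSS) and when its gene type was protein-coding. There were 770 such peaks at 752 genes. They made up 4.74% of the 16236 control-specific peaks and 770 of the 900 control-specific promoter peaks, and the 3 lists of the study held 56159 peaks in all. For comparison, the list of peaks common to both libraries held 3127 protein-coding promoter peaks at 3016 genes, and the list specific to NR2E3-depleted cells held 2495 at 2408 genes.

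HepG2 is an established human liver cancer cell line. The control cells (CT) carried a scrambled small hairpin RNA, and the NR2E3-depleted cells (KO II) carried 1 small hairpin RNA against NR2E3, an orphan nuclear receptor. Both RNAs were delivered by lentiviral particles, and the study asked how loss of NR2E3 changes chromatin accessibility. There was 1 library per group, so no difference between the conditions has a replicate check and no p-value was computed.

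FAIRE keeps the DNA that formaldehyde has not bound to protein, so nucleosome-poor stretches such as active promoters are over-represented in the library. Many human promoters lie in CpG islands, which are rich in G and C and in the dinucleotide CpG, and bind factors such as Sp1, NF-Y and ETS proteins close to the TSS. Promoters of genes used only in the liver more often lack a CpG island and bind hepatocyte factors such as HNF4.

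The reference sequence under 6 of the tallest control-specific promoters is shown to give the range from CpG-rich to CpG-poor sites. The first 4 are genes without a promoter peak in another list, and the last 2 (NAPA and PPM1D) had one. Each run is the part of the peak that lies upstream of annotated exons, 5′ to 3′ on the gene's strand, from hg38. Capitals mark matches, on either strand, to GGGCGG (Sp1), CCAAT (NF-Y), CCACNCCC (KLF), CCGGAAG (ETS), CACGTG (E-box) and CAAAGTCCA (HNF4).
POLDIP2, chr17:28357528-28357641, minus strand: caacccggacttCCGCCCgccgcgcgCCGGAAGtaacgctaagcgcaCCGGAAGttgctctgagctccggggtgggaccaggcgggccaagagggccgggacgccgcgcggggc
AHSG, chr3:186612606-186612905, plus strand: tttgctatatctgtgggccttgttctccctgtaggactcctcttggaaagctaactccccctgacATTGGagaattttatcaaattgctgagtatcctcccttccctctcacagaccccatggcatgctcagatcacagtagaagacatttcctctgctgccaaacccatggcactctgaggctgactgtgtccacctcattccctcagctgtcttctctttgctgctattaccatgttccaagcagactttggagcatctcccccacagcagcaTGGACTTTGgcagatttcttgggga
PPP1R8, chr1:27830581-27830748, plus strand: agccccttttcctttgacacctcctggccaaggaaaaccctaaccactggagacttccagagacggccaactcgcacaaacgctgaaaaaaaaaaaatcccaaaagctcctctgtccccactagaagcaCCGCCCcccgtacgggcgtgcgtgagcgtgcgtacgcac
TBPL1, chr6:133952975-133953184, plus strand: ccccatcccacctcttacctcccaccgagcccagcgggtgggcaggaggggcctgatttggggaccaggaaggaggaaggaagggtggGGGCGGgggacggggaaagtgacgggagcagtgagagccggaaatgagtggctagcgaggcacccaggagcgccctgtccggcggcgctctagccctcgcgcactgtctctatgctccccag
NAPA, chr19:47515350-47515649, minus strand: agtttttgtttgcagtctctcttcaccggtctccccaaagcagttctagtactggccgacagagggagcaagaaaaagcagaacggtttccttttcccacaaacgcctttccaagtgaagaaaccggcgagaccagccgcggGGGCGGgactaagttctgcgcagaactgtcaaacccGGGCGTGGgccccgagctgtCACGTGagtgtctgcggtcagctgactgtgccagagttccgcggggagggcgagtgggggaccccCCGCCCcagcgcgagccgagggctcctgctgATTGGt
PPM1D, chr17:60599415-60599714, plus strand: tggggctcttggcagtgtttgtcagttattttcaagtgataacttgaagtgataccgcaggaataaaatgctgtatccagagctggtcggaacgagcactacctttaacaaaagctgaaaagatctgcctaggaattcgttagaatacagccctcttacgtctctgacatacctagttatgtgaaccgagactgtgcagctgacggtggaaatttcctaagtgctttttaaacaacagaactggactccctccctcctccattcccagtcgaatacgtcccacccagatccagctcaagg

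The POLDIP2 run held 17 CpGs in 114 bases and a pair of ETS matches, whereas the AHSG run held 0 CpGs in 300 bases with its HNF4 match near the 3′ end. That HNF4 match lay outside the 200 bp around the peak centre that were used for motif shares. In windows of that length, HNF4 letters stood in 0.26% of members, 0.42% of common, 0.32% of depleted-specific and 0.27% of RefSeq protein-coding promoters. The PPM1D run, which lies between 768 and 469 bp upstream of the TSS, held none of the motifs searched. The NAPA run held 22 CpGs and matches to the Sp1, NF-Y, KLF and E-box letters. A match is a description of the letters and not evidence that a factor was bound.

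By annotated promoters, most genes with a control-specific promoter had no promoter peak in either other list. This held for 547 of the 752 genes (72.7%, 95% interval 69.4 to 75.9%), with 555 peaks. A further 114 genes also had a common promoter peak, 81 had a depleted-specific one and 10 had both, so that 205 genes (215 peaks) had a promoter peak elsewhere. Among all 20052 protein-coding genes of the reference table, 3.73% had a control-specific promoter, 2.70% had one and no promoter peak elsewhere, 15.0% had a common promoter and 11.9% had a depleted-specific promoter. These intervals, and all those below, are 95% intervals for counting error alone, with peaks taken as independent. They are exact, and those of differences have the Newcombe form, built here from exact limits.

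The split depends on what counts as the same gene being open elsewhere. When any peak of another list with the same nearest gene was counted, at any distance, 38.2% of the genes (34.7 to 41.7%) remained without one, which is no longer most of them. With such peaks counted within 3000 bp of a TSS, the share was 59.4%. The gene named for a peak is the one with the nearest TSS, whereas the promoter class can come from another gene's transcript. This was the case for 80 of the 766 peaks whose transcript could be matched, and for 37 of the 45 that were centred more than 100 bp downstream of the TSS. Examples were COX11, whose peak 744 bp downstream was classed by a transcript of STXBP4, and TAP1, whose peak at 211 bp was classed by a transcript of PSMB9.

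Control-specific promoters were low peaks beside the common ones. Peak scores in a list were whole multiples of 1 step, so that each score could be read as a number of sequenced tags. Members had a median score of 6.10 (range 4.47 to 10.2), which is 15 tags (quartiles 14 to 16, range 11 to 25), and a peak of 15 tags has a Poisson interval of 8.40 to 24.7 tags. Common promoters, whose scores were on the same control scale, had a median of 17 tags (quartiles 15 to 21, highest 80). At least 20 tags were held by 7.01% of the members and by 31.5% of the common promoters, a difference of −24.5 points (−26.9 to −21.9). Depleted-specific promoters, counted in tags of the other library, had a median of 14 tags (quartiles 12 to 16, highest 60), and 8.34% of them reached 20 tags. Their median score was 7.10 (range 4.56 to 30.4), on that library's own scale. Common peaks had no score on that scale, so whether depleted-specific promoters were low in their own library was not tested. Members with and without a promoter peak elsewhere both had a median of 15 tags, and 8.84% against 6.31% reached 20 tags (difference 2.53 points, −1.63 to 7.52).

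Read from the side of the control library, the share of its promoter peaks that were listed only in control fell with peak height. It was 41.9% (33.1 to 51.1%) of the 124 peaks with 11 or 12 tags, 33.2% at 14 tags, 21.1% at 16 tags and 8.25% at 20 to 22 tags. Of the 265 peaks with 23 to 25 tags, 13 were control-specific (4.91%). None of the 278 peaks with 26 tags or more was, which allows a share of up to 1.08% by 3 counts (exact 95% upper limit 1.32%). Tag numbers of members or common peaks in the depleted cells were not analysed here, so whether a member held fewer tags in those cells was not tested.

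**Figure D1:**
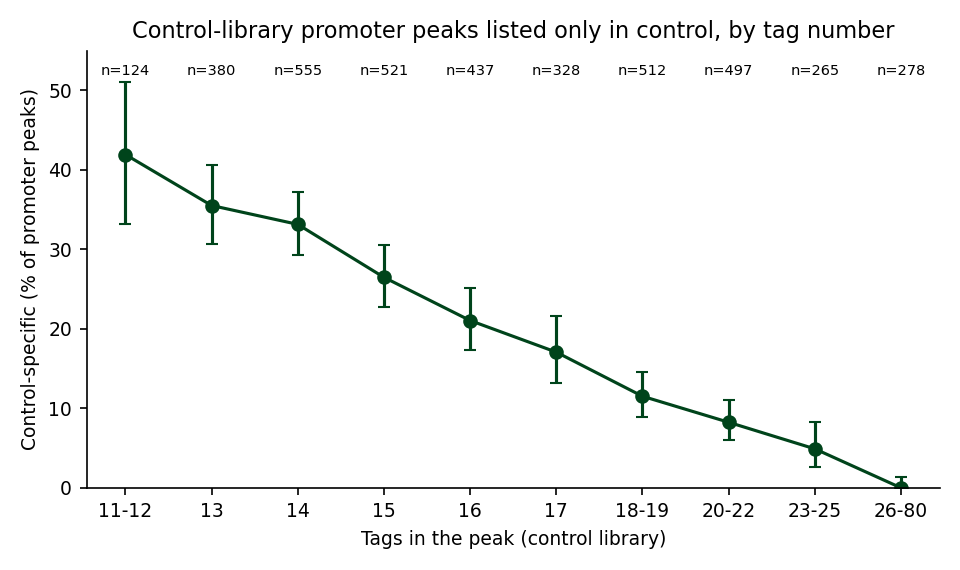
Share of the control library's protein-coding promoter peaks (control-specific plus common, n above each point) that were listed only in control, in percent, against the number of tags in the peak. Points are shares and bars exact 95% intervals. The share falls from 41.9% at 11 to 12 tags to 0 at 26 to 80 tags.

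The tallest members without a promoter peak elsewhere covered several cell functions. POLDIP2, a DNA polymerase delta-interacting protein, and TINF2, a subunit of the telomere-capping shelterin complex, each held 25 tags (interval 16.2 to 36.9). AHSG, the plasma glycoprotein fetuin-A, held 24 tags (15.4 to 35.7). CASP10, an initiator caspase, PPP1R8, a nuclear inhibitor of protein phosphatase 1, TBPL1, a relative of the TATA-binding protein, and TRAPPC6A, part of a vesicle-tethering complex, held 23 tags each (14.6 to 34.5). AKAP6, an anchor of protein kinase A, LIPA, the lysosomal acid lipase, and MED11, a Mediator subunit, held 22 tags each (13.8 to 33.3). These intervals overlap, so the order within the group is not resolved.

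Some of these genes lay near a peak of another list that was not listed as a promoter peak of the same gene. The TINF2 peak was 353 bp from a common peak. The TRAPPC6A peak was 327 bp, the MED11 peak 471 bp and the AKAP6 peak 592 bp from a depleted-specific peak. The other 6 were more than 1000 bp from any peak of the other lists, with TBPL1 farthest at 29003 bp. TRAPPC6A and POLDIP2 shared their promoter region with a gene on the opposite strand, BLOC1S3 and TMEM199 respectively. Such head-to-head partners were found at 13.4% of members, 17.7% of common promoters (difference −4.31 points, −7.01 to −1.38) and 12.6% of depleted-specific promoters (0.75 points, −1.95 to 3.66).

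The tallest members at genes with a promoter peak elsewhere were each beside a second peak of the same gene. NAPA, the vesicle-fusion adaptor alpha-SNAP, had 25 tags at 436 bp upstream and a depleted-specific peak of 26 tags, counted in the other library, at 125 bp upstream. GTF3C2, a subunit of the RNA polymerase III factor TFIIIC, had 24 tags at 207 bp downstream and a depleted-specific peak of 20 tags at 102 bp upstream of the same TSS. PPM1D, a phosphatase that dampens p53 signalling, had 24 tags at 618 bp upstream and a common peak of 24 tags at 75 bp upstream. CHMP4A, an ESCRT-III subunit, had 23 tags at 670 bp upstream and a common peak of 28 tags at 147 bp upstream. At HMGN4, a nucleosome-binding protein, the order was turned, with the 23-tag member 201 bp and the 19-tag common peak 973 bp upstream.

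There were 734 genes with 1 control-specific promoter peak and 18 genes with 2. The tallest of these 18 were TINF2 (25 tags at 64 bp and 18 tags at 989 bp upstream), PNISR, a nuclear serine- and arginine-rich protein (22 tags at 77 bp and 19 tags at 574 bp upstream), and the chromatin genes L3MBTL1, ZZZ3 and EPC1. Neither peak of TINF2 or PNISR had a promoter peak of the same gene in another list. L3MBTL1 and EPC1 also had common and ZZZ3 also had depleted-specific promoter peaks.

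Members lay mostly just upstream of the TSS, with a broader upstream tail than promoters of the other lists. The median position of the peak centre was −102 bp (−122 to −84; negative is upstream), the quartiles were −347 and −17 bp and the range was −998 to 820 bp. Within 200 bp of the TSS lay 59.4% of the members, 76.9% of the common promoters and 75.5% of the depleted-specific promoters. The difference from the common list was −17.6 points (−21.4 to −13.8), and that from the depleted-specific list was −16.1 points (−20.1 to −12.2). More than 500 bp upstream lay 19.7% of the members against 4.57% and 9.70%. The class ends near 1000 bp upstream: the outermost members were SLC23A2 at −998 bp (14 tags) and XRN2 at −996 bp (13 tags), and the nearest control-specific peaks beyond it were MFAP3L at −1006 bp (14 tags) and MAP4K4 at −1006 bp (15 tags).

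The tail belonged largely to genes with a promoter peak elsewhere. Of the peaks at genes without one, 69.4% lay within 200 bp of the TSS and 11.5% more than 500 bp upstream. Of those at genes with one, 33.5% lay within 200 bp (difference −35.9 points, −43.2 to −28.0) and 40.9% more than 500 bp upstream. Where the other peak was common, 53.4% were more than 500 bp upstream. Peaks are 300 bp wide, and a single member, at L3MBTL1, was centred within 150 bp of a peak of another list. Among promoter pairs of the same gene, only those at L3MBTL1 (123 bp apart) and CKS1B (288 bp), both with a common peak, overlapped. Pairs with a depleted-specific peak began at 303 bp, just beyond overlap. A second peak at one TSS must therefore lie away from the first, which in part fixes this contrast. Members without a promoter peak elsewhere lay within 200 bp less often than common promoters (difference −7.54 points, −11.8 to −3.44), but this was not resolved off the 6 peak-dense chromosomes described below (75.9% against 77.4%, difference −1.41 points, −6.69 to 3.49).

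**Figure D2:**
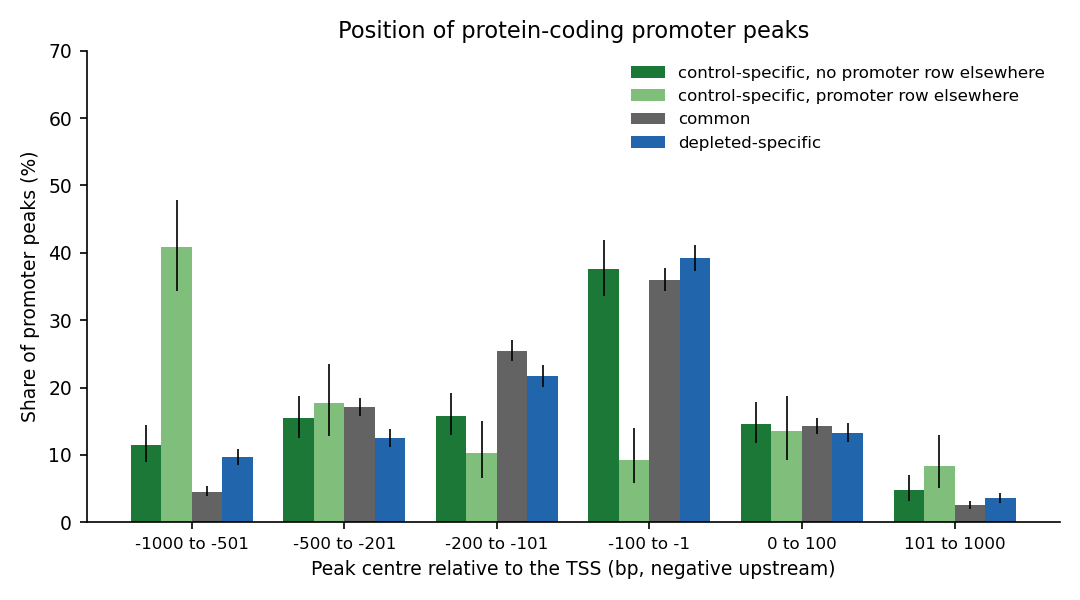
Share of protein-coding promoter peaks, in percent, by position of the peak centre relative to the TSS (bp, negative upstream), for control-specific peaks at genes without and with a promoter peak elsewhere, common peaks and depleted-specific peaks. Bars are shares with exact 95% intervals. Control-specific peaks at genes with a promoter peak elsewhere stand out at more than 500 bp upstream, where 40.9% of them lie.

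At one TSS, the control-specific peak was mostly the outer one beside a common peak, and about as often the inner as the outer one beside a depleted-specific peak. There were 145 pairs of a control-specific and a common promoter peak of the same gene, at 124 genes, and 67 of them (46.2%) shared a TSS. In 61 of these 67 pairs (91.0%, 81.5 to 96.6%) the control-specific peak was the farther from the TSS, at a median of 697 bp against 99 bp. It also had fewer tags in 51 pairs, equal tags in 6 and more in 10, with medians of 15 and 19. With depleted-specific peaks there were 105 pairs at 91 genes, of which 53 shared a TSS. The control-specific peak was the farther in 25 of these (47.2%, 33.3 to 61.4%), with medians of 277 and 304 bp, so that neither library's peak was regularly the nearer.

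**Figure D3:**
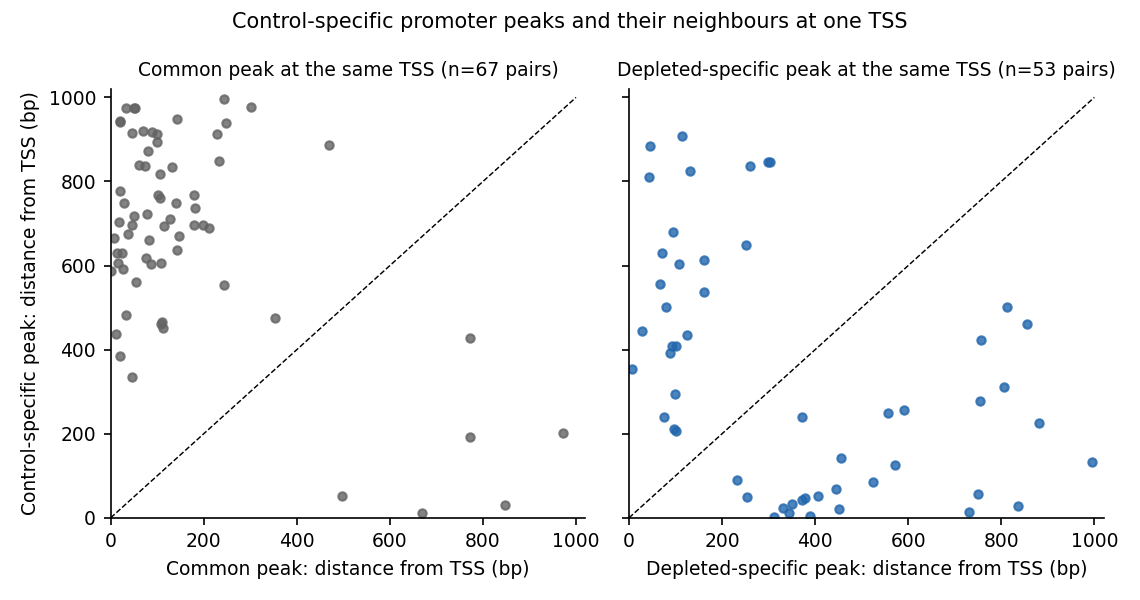
Distance from the TSS, in bp, of a control-specific promoter peak (vertical axis) against that of a common peak (left, 67 pairs) or a depleted-specific peak (right, 53 pairs) at the same TSS, 1 point per pair, with a dashed line of equal distance. Of the pairs with common peaks, 61 lie above the line, and of those with depleted-specific peaks, 25 do.

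Over both other lists, the nearest pairs were at L3MBTL1, a histone methyl-lysine reader, where the control-specific and common peak were centred 123 bp apart, at CKS1B, a cofactor of cyclin-dependent kinases, also with a common peak (288 bp), and, with a depleted-specific peak, at GCKR, the glucokinase regulator, and MLKL, a pseudokinase of necroptosis (303 bp each), and at PIM1, a proto-oncogene kinase (306 bp, tied with PRPSAP1). The farthest pairs were at long genes with several promoters. With a common peak they were CHN2 at 289841 bp, FER at 175718 bp and ACYP2 at 151046 bp, and with a depleted-specific peak DST at 209235 bp and AHCYL2 at 143203 bp, where the 2 lists held different start sites of a gene. ACYP2 also had a depleted-specific peak 838 bp from its member.

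Irrespective of gene names, 215 of the 770 members (27.9%, 24.8 to 31.2%) were centred within 1000 bp of a common or depleted-specific peak of any class. The share was 73.0% at genes with a promoter peak elsewhere and 10.5% at genes without one. That split is itself made by promoter peaks of the same gene in another list, which in part sets this contrast. At genes without one, 55.3% of the peaks had no peak of the other lists within 10000 bp. By position, the members thus held both isolated peaks near a TSS and peaks that flanked one listed elsewhere.

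The sequence around the peak centres was poorer in GC than in the other 2 lists. In the 200 bp around the centre, the median GC content was 59.0% in members (57.5 to 60%), 63.0% in common and 65.5% in depleted-specific promoters. It was 61.5% in members at genes without a promoter peak elsewhere and 49.5% in the rest. GC content was under 50% in 29.4% of members and 9.47% of common promoters (difference 19.9 points, 16.5 to 23.4), and in 12.1% of depleted-specific promoters (difference 17.2 points, 13.7 to 20.8). The ratio of observed to expected CpG was at least 0.6 in 60% of members, 82.1% of common and 79.7% of depleted-specific promoters. In RefSeq promoters of protein-coding genes the share was 60.8%, close to that of all members, the median GC content was 63.0% and 19.8% were under 50% GC. The CpG share was 67.7% in members without and 40% in members with a promoter peak elsewhere. The RefSeq window was cut at the same place in each promoter, so its position was not matched to the peaks. Without the members that had a promoter peak elsewhere, the excess of peaks under 50% GC over the common list was 11.4 points (7.95 to 15.2).

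Sp1 letters were less frequent in members than in the other lists. GGGCGG was found in 40.9% of members, 56.6% of common promoters (difference −15.7 points, −19.6 to −11.7) and 58.3% of depleted-specific promoters (−17.4 points, −21.4 to −13.3). It stood in 50.9% of the 22198 RefSeq promoters of protein-coding genes, in a window of equal length. Members without and with a promoter peak elsewhere held it in 46.3% and 27%. GC content moved with this motif. Among peaks of 60 to under 70% GC, 61.1% of members, 64.6% of common and 63.3% of depleted-specific promoters held it, with differences of −3.48 (−10.8 to 3.58) and −2.20 points (−9.76 to 5.12). At 50 to under 60% GC the shares were 24.7%, 38.3% and 32.7%, where the difference from the common list was −13.6 points (−20.5 to −5.93). The difference from the depleted-specific list there was −8.01 points (−15.5 to 0.03). Under 50% GC and from 70% GC the intervals against both lists included 0. A lower share at like GC content was thus resolved only against the common list, and only at 50 to under 60% GC.

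The NF-Y letters differed from the common list at every GC content. CCAAT was found in 28.1% of members and 42.6% of common promoters (difference −14.5 points, −18.2 to −10.8), against 33.0% of depleted-specific promoters (−4.97 points, −8.64 to −1.18) and 28.9% of RefSeq promoters. Against the common list the difference was −14.2 points under 50% GC, −20.0 points at 50 to under 60%, −11.3 points at 60 to under 70% and −10.5 points from 70% GC, and each interval lay below 0. Against the depleted-specific list the interval included 0 in each of these 4 groups. The ETS letters, CCGGAAG, stood in 12.2% of members and 16.7% of common promoters (difference −4.52 points, −7.13 to −1.68), in 14.6% of depleted-specific promoters (−2.38 points, −5.04 to 0.49) and in 9.61% of RefSeq promoters. Within each of the 4 GC groups the ETS intervals against both lists included 0. Members without and with a promoter peak elsewhere held these letters in 15.0% and 5.12%.

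Half-sites of nuclear receptors went the other way over all peaks. AAGTCA, the half-site of NR2E3, was found in 8.96% of members, 5.50% of common promoters (difference 3.46 points, 1.36 to 5.83), 6.61% of depleted-specific promoters (2.35 points, 0.16 to 4.78) and 7.17% of RefSeq promoters. It stood in 13.5% of the members with a promoter peak elsewhere and in 7.21% of those without. AGGTCA, the general half-site, was found in 10.6% of members against 7.52% of common, 7.54% of depleted-specific and 8.30% of RefSeq promoters. Within groups of like GC content the differences for AAGTCA were not resolved. They were 4.55 points against the common list (−1.69 to 11) and −1.78 points against the depleted-specific list (−8.42 to 5.11) under 50% GC, and for both half-sites every interval in the 4 GC groups included 0. A letter match this short occurs often by composition, and binding was not measured.

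**Figure D4:**
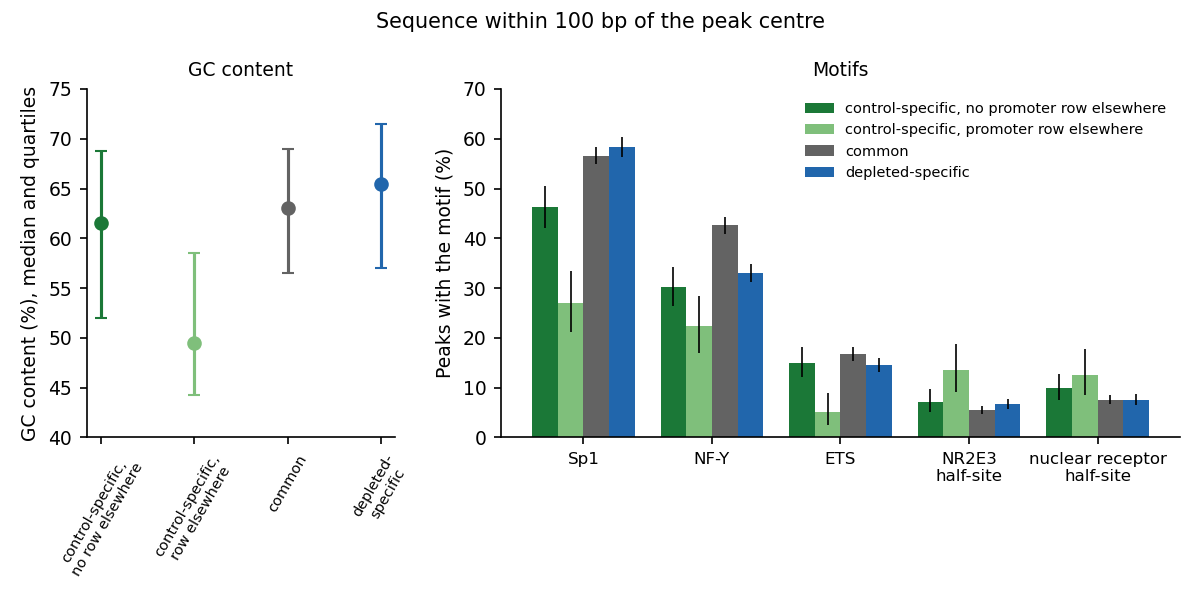
Left, GC content (percent) within 100 bp of the peak centre, as median with quartiles. Right, share of peaks (percent, exact 95% intervals) with a match to the Sp1, NF-Y, ETS, NR2E3 half-site and nuclear receptor half-site letters, for control-specific peaks without and with a promoter peak of the gene elsewhere, common peaks and depleted-specific peaks. Sp1 letters stand in 46.3% and 27% of the control-specific groups and in 56.6% of common peaks.

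Members were unevenly spread over the chromosomes. Chromosomes 2, 6, 14, 16, 17 and 20, which are dense in control-library peaks, held 47.7% of the members (44.1 to 51.3%), 48.7% of the common promoters and 30.5% of the depleted-specific promoters. These chromosomes were picked as dense from earlier results of these data. Members are control-library peaks themselves, so the choice in part sets their high share and the ratios below. Per 100 protein-coding genes these 6 chromosomes had 6.42 genes with a member, against 2.77 on the others, a ratio of 2.32. The ratio was 2.4 for common and 1.12 for depleted-specific promoters. It was 1.55 for members without and 7.06 for members with a promoter peak elsewhere. Chromosome 20 had the highest rate, 9.50 genes per 100, followed by chromosome 14 with 9.09, and chromosome X had 2 genes of 848. Copy number was not measured, and its part in this spread was not tested.

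On these 6 chromosomes 45.8% of members lay within 200 bp of the TSS and 33.0% held Sp1 letters, against 71.7% and 48.1% on the others. The contrast between the kinds of members was present on both sets. On the other chromosomes, 75.9% of members without and 46.6% of members with a promoter peak elsewhere lay within 200 bp, and their median GC content was 63.0% and 54.0%. On the 6 chromosomes these values were 58.6% and 28.7%, and 59.3% and 48.5%. The densest stretch was on chromosome 14 from 24 to 25 Mb, with 17 members at 14 genes, among them the proteasome activator genes PSME1 and PSME2, the leukotriene receptor genes LTB4R and LTB4R2, NEDD8, CHMP4A and TINF2. The neighbouring stretch from 23 to 24 Mb held 11 members at 11 genes.

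The genes of the members were compared with 34 gene lists, each read against the 3.73% of all protein-coding genes with a control-specific promoter. Of the 747 member genes that matched the reference table, 182 were in at least 1 list. A gene was counted by the name given to its peak, also where another gene's transcript gave the promoter class. Examples, with the other gene in brackets, were MRPL50 (ZNF189), POLR1A (PTCD3), POLR3F (DZANK1) and VPS52 (RPS18). The lists were written with earlier results of these data known, so their shares are descriptions.

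Genes of plasma proteins made by hepatocytes had control-specific promoters in 8 of 95 cases (8.42%, 3.71 to 15.9%), and none of the 8 had a promoter peak elsewhere. AHSG had 24 tags at 304 bp upstream and SERPINC1, which encodes antithrombin, 20 tags at 36 bp upstream. The clotting factor genes F7, F11 and F10 had 17, 15 and 13 tags. GPLD1, a phospholipase of plasma, had 16 tags, and RBP4, the retinol carrier, and TF, transferrin, 13 tags each. The nearest peak of another list was 1038 bp away at F11 and farther at the other 7. Of the whole list, 25 genes (26.3%) had a common and 8 (8.42%) a depleted-specific promoter, beside backgrounds of 15.0% and 11.9%.

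Of 30 liver transcription factor genes, 3 had a member. HNF4A, a nuclear receptor that governs hepatocyte identity, had 16 tags at 917 bp upstream and a common peak of 16 tags at 88 bp upstream of the same TSS. CEBPB, a CCAAT/enhancer-binding protein, had 19 tags at 121 bp upstream and a depleted-specific peak 397 bp away. RXRA, the partner of many nuclear receptors, had 15 tags at 404 bp upstream and no promoter peak elsewhere. Among 48 nuclear receptor genes NR1D1, a clock repressor, was the other member, with 13 tags at 940 bp upstream beside a common peak of 19 tags at 248 bp. NR2E3 itself had no promoter peak in any list. Of drug and bile acid genes, 3 of 117 were members: EPHX1, GSTA3 and ABCB11, the bile salt export pump, with 15, 15 and 13 tags.

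The p53 pathway list had 6 of 39 genes (15.4%, 5.86 to 30.5%), 4 of them without a promoter peak elsewhere. Besides PPM1D these were TP53I3, a p53-induced oxidoreductase (17 tags at 50 bp downstream), POLH, a translesion polymerase (16 tags), PLK3, a stress kinase (15 tags), RRM2B, a p53-induced ribonucleotide reductase subunit (14 tags), and CASP8, which had a common promoter peak 24401 bp away at another TSS. The list had common promoters at 33.3% and depleted-specific promoters at 15.4% of its genes. The apoptosis list had 6 of 44 (13.6%, 5.17 to 27.4%), of which 2 had no promoter peak elsewhere: CASP10 and the death receptor adaptor FADD, with 23 and 15 tags. The other 4 were BCL2L1, CFLAR, CASP8 and BMF. CFLAR, CASP10 and CASP8 lie close together on chromosome 2, and the interval takes them as independent. They and BCL2L1 were on the 6 dense chromosomes, where 6.42 genes per 100 had a member, and FADD and BMF were not. In the p53 list PPM1D, TP53I3, POLH and CASP8 were on those chromosomes, and PLK3 and RRM2B were not.

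The telomere maintenance list, written with TINF2 already known as a tall member, had 4 of 19 genes (21.1%, 6.05 to 45.6%). Besides TINF2 these were NOP10, a telomerase ribonucleoprotein (15 tags), STN1, of the CST complex (15 tags), and TEP1, a telomerase-associated protein (15 tags), which also had a depleted-specific promoter. TINF2 and TEP1 were on chromosome 14, one of the dense chromosomes, and NOP10 and STN1 were not on these. The NOP10 peak was classed by a transcript of NUTM1. Of genes for RNA polymerases, Mediator and general factors, 11 of 117 were members (9.40%, 4.79 to 16.2%), 8 of them without a promoter peak elsewhere. The 11 were led by GTF3C2 and MED11, followed by GTF2H4 (19 tags), TAF5 (18 tags) and MED23 (15 tags). Of 99 chromatin modifier genes 8 were members (8.08%, 3.55 to 15.3%), with EZH1, a histone H3 methyltransferase, tallest at 19 tags, and KAT5, KDM1A, KDM2A and PRMT5 at 14 to 16 tags.

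Housekeeping lists had common promoters at a larger share of their genes than members. All but the spliceosome had shares of members above the background, with wide intervals that included it. Common promoters were present at 43.7% of cytoplasmic and 35.9% of mitochondrial ribosomal protein genes, and members at 6.90% (2.57 to 14.4%, 6 of 87, led by RPL11 at 17 tags) and 7.69% (2.88 to 16.0%, 6 of 78). Of the proteasome genes 43.8% had a common promoter and 4 of 48 (8.33%) a member, 3 of which were PSME1, PSME2 and PSMC5 beside a common peak of the gene. The PSME2 and PSMC5 members, 606 and 820 bp downstream, were classed by transcripts of RNF31 and FTSJ3. The spliceosome had common promoters at 36.7% of its genes and members at 2 of 128 (1.56%, 0.19 to 5.53%), SRSF7 with 19 tags and SRSF10 with 15 tags. The shares were 7 of 117 (5.98%) for the respiratory chain, 4 of 75 (5.33%) for translation factors and 3 of 38 (7.89%) for aminoacyl-tRNA synthetases, the last being the mitochondrial enzymes FARS2, WARS2 and AARS2. Of cell cycle and replication genes 6 of 83 were members, led by the mitotic kinases AURKB (18 tags) and TTK (16 tags), and of DNA repair genes 5 of 75, led by MRE11 and POLH with 16 tags each.

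The large zinc finger and solute carrier lists had narrower intervals, which included the background. Of 600 C2H2 zinc finger genes, 28 were members (4.67%, 3.12 to 6.67%), and 25 of these had no promoter peak elsewhere, with ZSCAN9 (20 tags at 9 bp upstream) and ZNF789 (19 tags) tallest. Of 390 solute carrier genes, 22 were members (5.64%, 3.57 to 8.42%), led by SLC37A4, the glucose-6-phosphate transporter, with 21 tags at 68 bp upstream. Vesicle traffic genes had 13 members of 210, ubiquitin ligase and protease genes 14 of 313, vacuolar ATPase and lysosome genes 2 of 75 and replication-dependent histone genes 2 of 69.

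The remaining signalling, metabolic and tissue lists had 0 to 2 members each. In the Wnt and β-catenin list these were MYC and DVL2 (2 of 84, 2.38%). MYC, a growth-promoting transcription factor, had 19 tags at 204 bp upstream, no promoter peak elsewhere and a depleted-specific peak of another class 1109 bp away. RBPJ, the DNA-binding effector of Notch, was the member among 41 Notch genes, with 16 tags at 26 bp downstream, and KLF13 that among 30 Sp, KLF and NF-Y factor genes. JAG1 and PPARD were not members. Both had a common promoter, and JAG1 also had a depleted-specific one. There were 2 of 84 inflammatory genes (TAP1 and SOCS1), 2 of 64 immediate early and stress genes (MYC and HSP90AA1), 1 of 78 cholesterol and fatty acid genes (LIPA), 1 of 44 glycolysis genes (GCKR) and 1 of 72 neuronal genes (STXBP6). None of the 392 olfactory receptor genes was a member, which allows up to 0.765% by 3 counts (exact upper limit 0.937%), and none of the 55 keratin genes, which allows up to 5.45% (exact upper limit 6.49%).

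**Figure D5:**
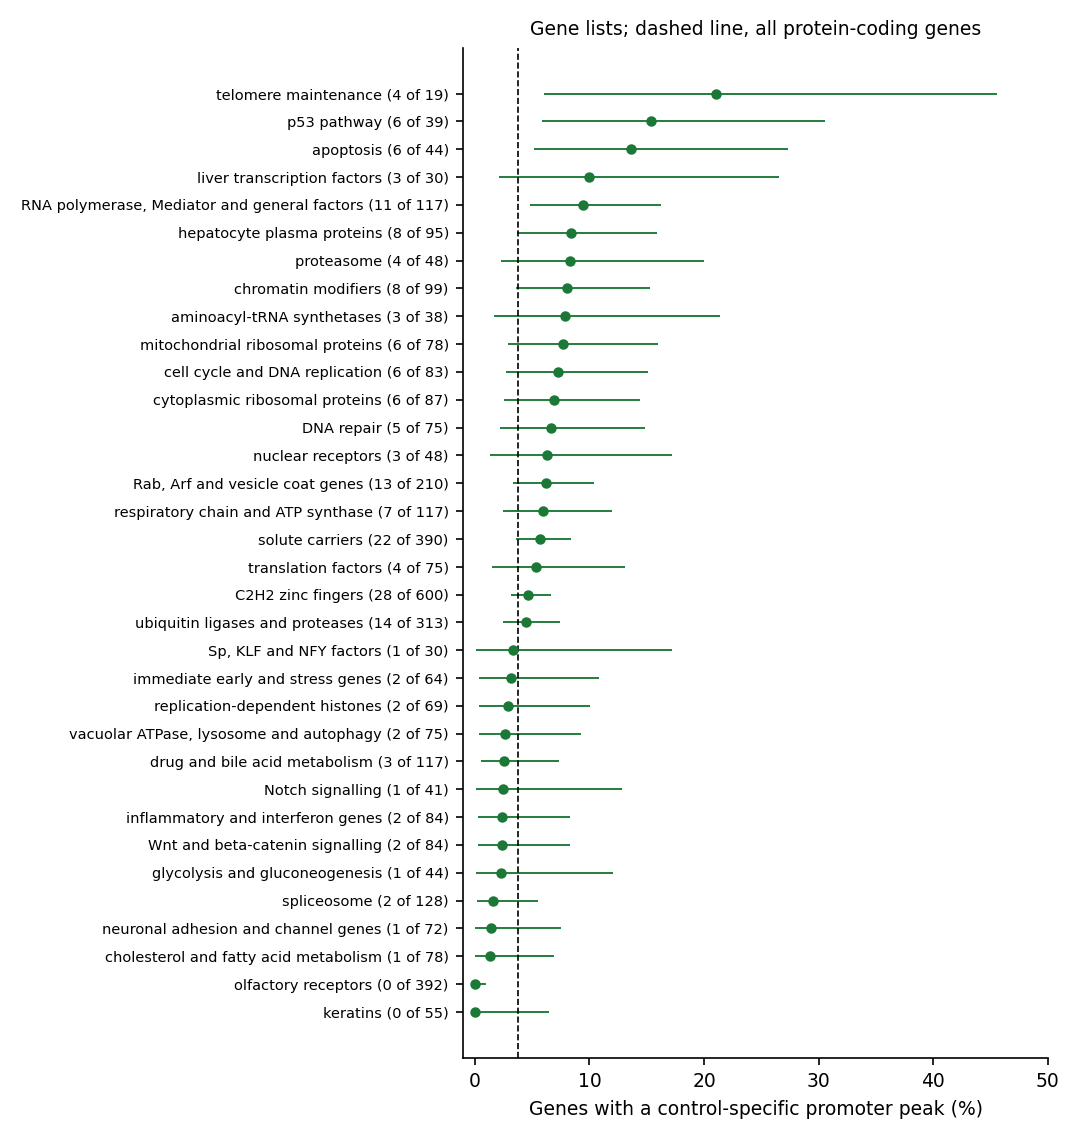
Share of the genes of each list with a control-specific promoter peak, in percent, with exact 95% intervals, and the number of genes in brackets. The dashed line is the 3.73% over all protein-coding genes. Telomere maintenance (21.1%), the p53 pathway (15.4%) and apoptosis (13.6%) lie farthest to the right, with wide intervals, and olfactory receptors and keratins are at 0.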

How the data were processed

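Per the labels and the study's methods, the authors used Trimmomatic 0.39 for trimming and Bowtie2 2.4.5 for alignment to hg38, called peaks with HOMER findPeaks (q-value threshold 0.05) and annotated them with annotatePeaks. The criterion that separated common from specific peaks is not given in the sources used here. The deposited peak score is the authors' scaled tag number. All scores under 10 were whole multiples of 0.407 (control-specific and common lists) or 0.507 (depleted-specific list), allowing 0.005 for rounding, and tags are score over step. Positions, classes, distances to the TSS and gene names are as the authors deposited them. The library depth is not stated.

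Sequence was read from hg38 within 100 bp of peak centres, exons from GENCODE 44, and promoters and gene symbols from RefSeq (GRCh38.p14). Symbols matched for 765 of 770 members. The 14 motifs were searched on both strands. Same TSS means positions within 2 bp. Intervals are Clopper-Pearson, Poisson and order-statistic 95% intervals and, for differences, intervals of Newcombe form with Clopper-Pearson in place of Wilson limits. The calculations were tested on simulated data. The members, the dense chromosomes and the gene lists were chosen with earlier results of these data known. Named genes were the 10 tallest without and the 5 tallest with a promoter peak elsewhere, the 5 tallest with 2 peaks, the 5 nearest and farthest pairs, up to 5 per list, and a fixed set including NR2E3, JAG1, PPARD and MYC. Genes of the densest stretch and those classed by another gene's transcript were chosen after their values were seen. Scripts ran under Python 3.11.15 with scipy 1.17.1, pandas 2.3.3, matplotlib 3.10.9 and numpy 2.4.6.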

Additional observations from a re-analysis of the deposited data

How the results depend on the processing

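No paired analysis was possible because there was 1 library per group. No difference changed sign under the alternatives of this section. The GC groups above, of which only Sp1 at 60 to under 70% GC is among these alternatives, did hold changes of sign. Under 50% GC the differences from the depleted-specific list were −1.78 points for AAGTCA and 0.14 points for Sp1 letters, with intervals that included 0. Of the alternative values, 34 lay outside and 30 within the 95% interval of the reported value, the latter including every one for the median tag number. The share of genes without a promoter peak elsewhere (72.7%) became 86.0% without the 6 dense chromosomes, 80.5% with centres within 500 bp of the TSS, 90.1% without members within 1000 bp of another list, 59.4% with any peak within 3000 bp of a TSS, 38.2% with any peak of the gene, a minority, and 76.6% when promoter peaks of any gene within 1000 bp counted. The last of these, the GC-limited values and the values for members without a promoter peak elsewhere were chosen after seeing the data. The difference in peaks within 200 bp of the TSS from the common list (−17.6 points) became −5.64 without the dense chromosomes, −4.45 within 500 bp, −7.90 without near members and −7.54 for members without a promoter peak elsewhere, or −1.41 for these off the dense chromosomes. The share of members near another list (27.9%) became 14.1% without the dense chromosomes, 21.1% within 500 bp of the TSS, and 10.4% and 0.13% when near meant 500 and 150 bp. The excess of peaks under 50% GC (19.9 points) became 10.9, 11, 14.1, 11.4 and 7.15 in the same order as for the TSS. The Sp1 difference from the common list (−15.7 points) became −9.13, −8.42, −11.6, −10.3 and −7.41 in that order, −10.2 in 50 bp on each side and −3.48 at 60 to under 70% GC. From the depleted-specific list (−17.4 points) it became −12.9 without the dense chromosomes, −13.3 without near members, −12.0 for members without a promoter peak elsewhere (−11.2 off the dense chromosomes) and −2.20 at that GC content. The share on dense chromosomes (47.7%) became 40.2% within 500 bp and 37.7% without near members. The causes of these shifts were not tested beyond the restriction itself. With 1 library per group and 11 to 25 tags per peak, single peaks cannot be ranked, and a peak missing from a list is not shown to be closed.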
